A study of Danio rerio with 6 samples.

Results

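The 10 genes described here encode apolipoproteins (apoea, apoeb, apoa1a, apoa1b, apoc1), exporters of cellular cholesterol (abca1a, abca1b, abcg1), the oxysterol receptor LXR (nr1h3) and lipoprotein lipase (lpl). They were chosen by name, with earlier results of these data known. All 10 were found, each as 1 row, among the 36351 gene rows of the count files. Their RNA was measured in bulk, by sequencing, in cells sorted for dsRed fluorescence out of the skeletal tissue of fish aged 10 weeks post fertilization. Every fish carried the ctsk:dsRed transgene, in which the cathepsin K promoter, active in osteoclasts, drives a red fluorescent protein, and clcn7-/- fish, here called mutants, were compared with their WT siblings. There were 3 libraries per genotype, each from 2 fish with 5000 sorted cells per fish, so a library is a pool and not a single animal, and the labels do not describe the clcn7 allele. clcn7 encodes a chloride/proton exchanger of the lysosome, and the title of the series gives its aim as a search for osteogenic factors from osteoclasts that do not resorb bone.

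Cells rid themselves of surplus cholesterol by handing it to apolipoproteins outside the membrane. ABCA1 moves cholesterol and phospholipid onto lipid-poor apolipoprotein A-I or E, ABCG1 adds cholesterol to the particles so formed, and oxysterols switch on both transporters in mammals through LXR, which binds DNA together with the retinoid receptor RXR. Lipoprotein lipase acts on the supply side, since it frees fatty acids from circulating triglyceride. In cultured mouse osteoclasts, cholesterol supports cell fusion and survival. Zebrafish keep 2 copies each of the ABCA1, APOE and APOA1 genes.

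The libraries held between 22739782 and 26951306 read counts over genes. The sort was not purely osteoclastic by its transcripts. ctsk itself ranged from 463.4 to 1264 CPM (counts scaled to library size, with TMM factors, as edgeR defines CPM), and 9 osteoclast markers together from 1333 to 2865 CPM in WT and from 2324 to 3353 CPM in mutants. Most of the osteoclast sum was ctsk and acp5a, and acp5b stood lowest, at 0.13 to 4.21 CPM. The sum of 11 keratinocyte markers was 41446 to 50567 CPM in WT and 15924 to 26217 CPM in mutants, and that of 10 osteoblast markers 4287 to 6190 CPM and 2723 to 2962 CPM. The sum of 12 macrophage markers was 278 to 512.8 CPM in WT and 1375 to 2967 CPM in mutants.

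Of the 10 genes, apoeb differed between genotypes, being lower in mutants, and none was called higher. The test covered 9 of the 10, since apoea had too few reads, and used edgeR's quasi-likelihood test with p-values adjusted by the Benjamini-Hochberg method over all 20438 genes tested and a threshold of 0.05. Over all of these genes 4.83% were called lower in mutants, 9.91% higher and 14.7% in either direction, so 1 of 9 called in either direction is near the background. The split of 2026 higher and 987 lower moved to 1787 and 1675 when upper-quartile factors were used, and to 2629 and 564 under library size alone. For the 9 genes the median log2 fold change was 0.04, beside -0.05 for all genes tested.

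**Figure D1:**
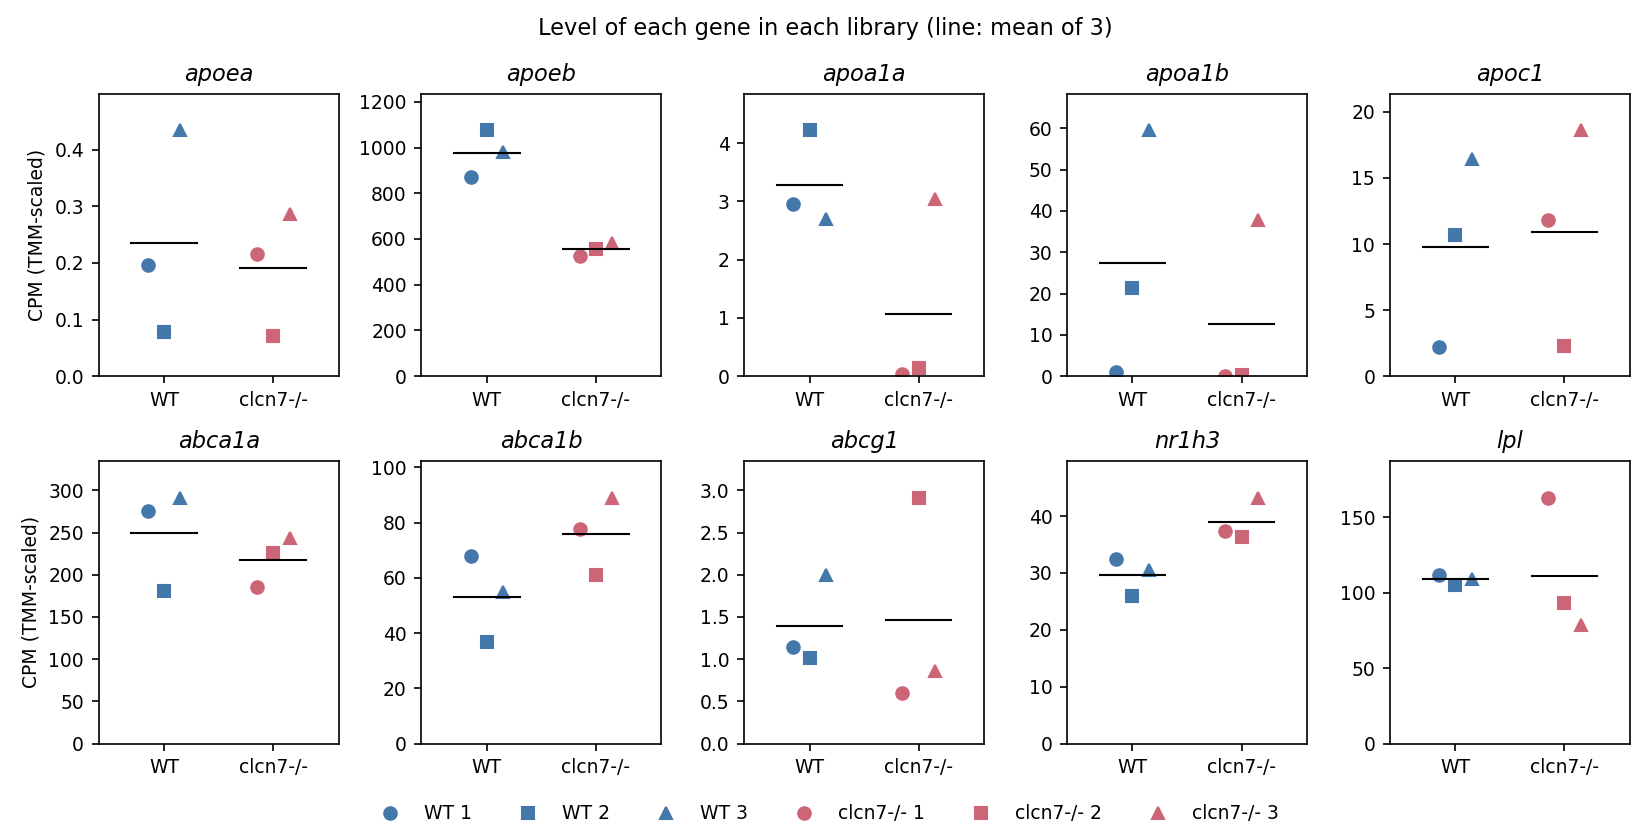
Level of each of the 10 genes in the 6 libraries, in TMM-scaled CPM on linear axes that start at 0; blue marks are WT, red marks are clcn7-/-, the shape gives the replicate number and the line is the mean of 3. apoeb and nr1h3 are the genes whose genotypes do not overlap, while apoa1a, apoa1b and apoc1 spread widely within a genotype.

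The apolipoproteins include the one gene that fell. apoeb (ENSDARG00000040295) encodes one of the apolipoprotein E copies of zebrafish, the ligand by which lipoprotein particles are taken up through receptors of the LDL receptor family, and it is widely used as a marker of microglia in that species. The WT replicates 1, 2 and 3 held 873, 1075 and 981.6 CPM of it, and the mutant replicates 1, 2 and 3 held 526.2, 557.2 and 582.2 CPM. The genotypes did not overlap, as was so for 37.0% of all genes tested, and each group was tight, with a coefficient of variation of 10.3% in WT and 5.05% in mutants. The mean went from 976.4 ± 101 to 555.2 ± 28 CPM (SD, n = 3), a log2 fold change of -0.81 ± 0.14 (SE; 95% interval -1.14 to -0.49, edgeR adjusted p = 0.0091), or 0.569 times the WT level. apoeb stayed past the threshold in all 13 alternative analyses, with a log2 fold change between -0.92 and -0.66 and an adjusted p between 1.2e-06 and 0.0485. In the authors' deposited table its log2 fold change is -0.80 with an adjusted p of 1.16e-07. In bulk samples, fewer cells of a type and less RNA per cell cannot be told apart.

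Markers of keratinocytes and osteoblasts moved along with apoeb. Of 11 keratinocyte markers 7 were called lower and none higher, with a median log2 fold change of -1.27, and of 10 osteoblast markers 4 were called lower and none higher (median -1.03). Of 8 fibroblast markers none was called, and their summed level was 27973 to 38183 CPM in WT and 18498 to 27161 CPM in mutants. Most of that sum was col1a2 (log2 fold change -0.52, edgeR adjusted p = 0.183). The fold changes of thy1 and fn1a were 0.42 and 0.25, and those of the remaining fibroblast markers were negative. Macrophage markers went the opposite way to apoeb: 11 of 12 were called higher and none lower, with a median of 2.94. No marker of these 4 lists was at 0 in all libraries. Of 9 osteoclast markers 1 was called higher (tcirg1b, log2 fold change 2.31) and 1 lower (nfatc1, -0.65), with a median of 0.42. The other 7 were not called, ctsk and acp5a among them. The part of any of these cell types in the fall of apoeb was not tested.

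apoea, the other apolipoprotein E gene, was barely detected. Its reads numbered 5, 2 and 10 in the WT libraries and 5, 2 and 8 in the mutant libraries, or 0.0701 to 0.434 CPM. With so few reads no difference was detectable at this depth, and the authors' deposited table gives no fold change for it. The apoeb reads outnumbered those of apoea in every library, by a log2 ratio of 10.91 to 13.41, with no correction for transcript length.

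apoa1b encodes a form of apolipoprotein A-I, the main protein of high-density lipoprotein, and its level varied widely between the libraries of each genotype. WT replicates 1, 2 and 3 stood at 0.904, 21.4 and 59.5 CPM, while mutant replicates 1, 2 and 3 stood at 0, 0.35 and 37.7 CPM. High libraries (WT replicates 2 and 3, mutant replicate 3) and low ones thus occurred in both genotypes. Mutant replicate 1 held 0 reads, which allows up to 0.132 CPM (3 counts, before TMM scaling; counting error only). The log2 fold change was -1.10 ± 1.79 (SE, edgeR adjusted p = 0.728), with a 95% interval from -5.25 to 3.05. This fit, with genotype as the sole term, does not narrow the difference to a direction. Without mutant replicate 3 the log2 fold change was -7.13 and still not past the threshold (edgeR adjusted p = 0.0707), and without WT replicate 3 it was 0.23. With the replicate number as a block it was -2.94 ± 1.1 (SE, edgeR adjusted p = 0.125), also not past the threshold. In each same-numbered pair the mutant library was the lower one, but the labels do not say whether the numbers pair the libraries.

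apoa1a, the other apolipoprotein A-I gene, was even across WT and split within mutants. Its levels were 2.95, 4.22 and 2.69 CPM in WT and 0.0432, 0.14 and 3.04 CPM in mutants, which is 75, 107 and 62 reads against 1, 4 and 85. Mutant replicate 3 lay among the WT libraries and the other mutant libraries lay far below them. With all libraries the log2 fold change was -1.60 ± 1.17 (SE, edgeR adjusted p = 0.406), and without mutant replicate 3 it was -5.04 ± 0.67 and passed the threshold (edgeR adjusted p = 0.00751). Over its 13 alternatives the adjusted p lay between 0.00751 and 0.626, and it passed in that 1. With the replicate number as a block the log2 fold change was -3.16 ± 1.3 (SE, edgeR adjusted p = 0.158).

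apoc1 encodes a small apolipoprotein that in mammals restrains lipoprotein lipase and receptor uptake. It measured 2.2, 10.7 and 16.4 CPM in WT and 11.8, 2.28 and 18.6 CPM in mutants. The lowest library of each genotype stood near 2 CPM and the highest above 16, so the groups covered the same span, and the log2 fold change was 0.16 ± 0.82 (SE, edgeR adjusted p = 0.924). In the GRCz12tu annotation apoc1 lies next to apoeb on chromosome 16, followed by apoc4, apoa2 and apoc2. Over the 6 libraries Pearson's r of log2 CPM between apoeb and apoc1 was 0.08, given as a description of libraries that share a sort and a scaling. The 95% interval of the apoc1 log2 fold change, -1.73 to 2.05, contains the apoeb estimate of -0.81. These libraries therefore do not separate the fold changes of the neighbours.

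apoa2, a neighbour of apoeb named here after its values were seen, was uneven in the same libraries as apoa1b. This gene, which encodes apolipoprotein A-II, stood at 1.49, 79.9 and 166 CPM in WT and 0.389, 0.736 and 71.1 CPM in mutants (edgeR adjusted p = 0.568). The sum of 9 hepatocyte markers, which include the fatty acid carrier gene fabp10a and the fibrinogen genes, came to 11.4, 76.1 and 124 CPM for WT replicates 1, 2 and 3, and to 30, 7.85 and 54.1 CPM for mutant replicates 1, 2 and 3. Within that sum, tfa stood at 4.52, 31.2 and 51.1 CPM in WT and 25.8, 5.29 and 21.9 CPM in mutants. fabp10a stood at 0.275, 20.5 and 21.1 CPM in WT and 0.0432, 0.946 and 7.68 CPM in mutants. Of 8 hepatocyte markers tested, 1 (fga) was called lower and none higher, and no marker was at 0 in all libraries. The part of liver transcripts in these apolipoprotein levels was not tested.

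**Figure D2:**
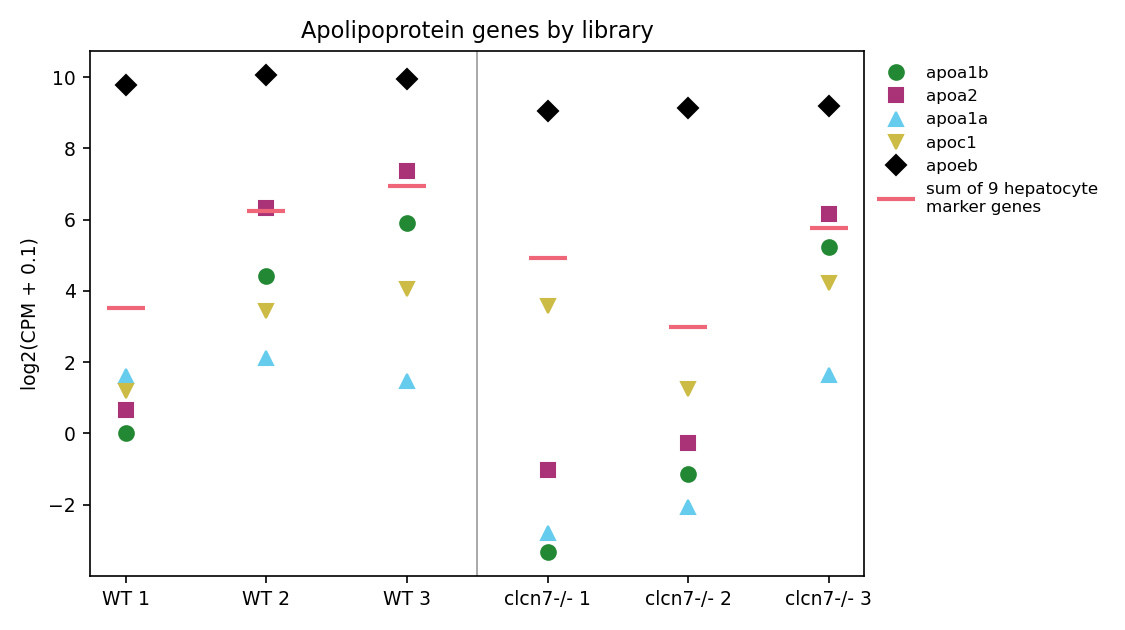
Apolipoprotein genes and the summed hepatocyte markers in each of the 6 libraries, as log2(CPM + 0.1); the vertical line divides WT from clcn7-/-. apoa1b and apoa2 are high in WT replicates 2 and 3 and mutant replicate 3, whereas apoeb is level within each genotype.

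Of the exporters, abca1a and abca1b are the paralogous ABCA1 genes, and none of the exporters passed the test. abca1a (ENSDARG00000074635) measured 275, 181 and 291 CPM in WT and 185, 226 and 243 CPM in mutants. The mutant libraries lay inside the WT range, and the log2 fold change was -0.19 ± 0.21 (SE; 95% interval -0.67 to 0.29, edgeR adjusted p = 0.589). abca1b (ENSDARG00000079009) measured 68.1, 36.8 and 54.8 CPM in WT and 77.8, 61.1 and 89 CPM in mutants. Mutant replicates 1 and 3 lay above all WT libraries and mutant replicate 2 among them, and the log2 fold change was 0.51 ± 0.24 (SE; 95% interval -0.05 to 1.08, edgeR adjusted p = 0.204). Its adjusted p lay between 0.078 and 0.404 over the alternatives.

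Taken as a share of the reads of both ABCA1 genes, abca1b was higher in every mutant library than in every WT library. It held 19.8%, 16.9% and 15.9% of those reads in WT replicates 1, 2 and 3 and 29.6%, 21.3% and 26.8% in mutant replicates 1, 2 and 3. This share does not depend on how the libraries are scaled. The log2 ratio of abca1b to abca1a was -2.24 ± 0.20 in WT and -1.53 ± 0.33 in mutants (SD, n = 3), a difference of 0.71 or 1.64-fold (two-sided exact permutation test, p = 0.1, which is the smallest p that 3 against 3 allows, and 0.3 adjusted over the 3 paralogue pairs). The difference stayed between 0.57 and 0.89 in the 8 alternatives run for it. This test cannot go below 0.1 with these libraries, so it gives the difference no call. For apoa1b/apoa1a and apoeb/apoea the ratios of the genotypes overlapped, with differences of -0.62 and -0.60 (exact permutation p = 0.8 and 0.6). The apoa1b/apoa1a ratio of mutant replicate 1 rested on 0 and 1 reads, so the 0.5 added to both counts set it. The apoeb/apoea ratio divided by 2 to 10 apoea reads per library.

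**Figure D3:**
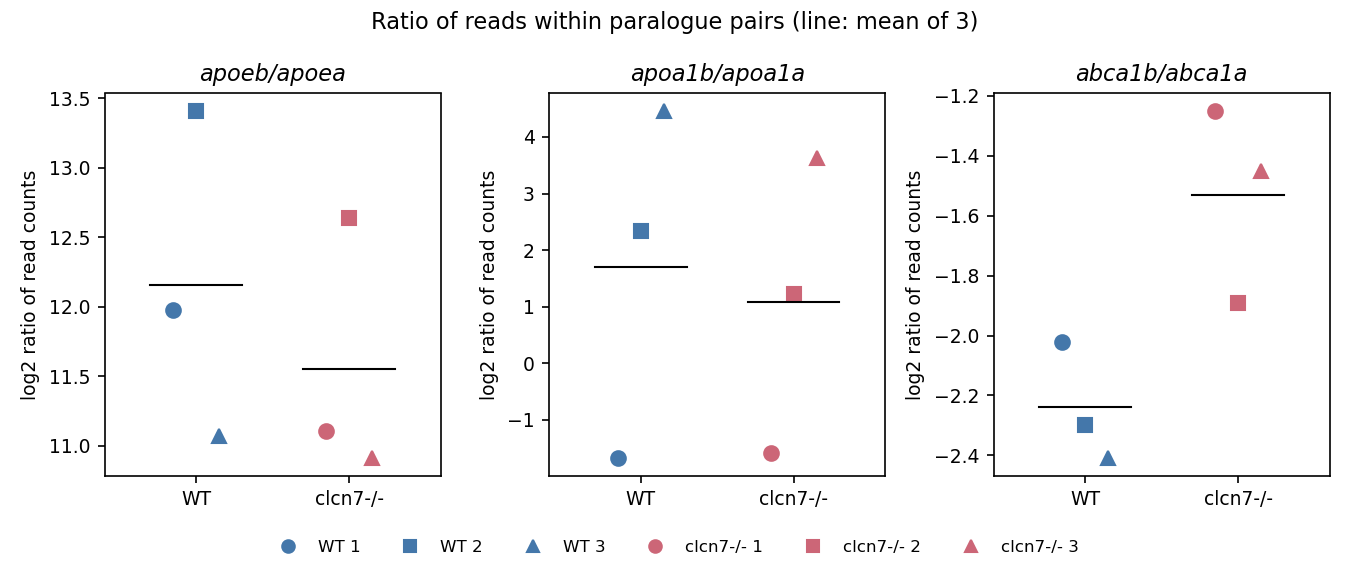
log2 ratio of the read counts of each paralogue pair in each library, with 0.5 added to both counts; blue is WT, red is clcn7-/- and lines are means of 3. The abca1b/abca1a ratios run from -2.41 to -2.02 in WT and from -1.89 to -1.25 in mutants, and the ratios of the other pairs overlap; the vertical axes differ and do not start at 0.

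abcg1, which encodes the exporter that loads formed particles, was scarce. It measured 1.14, 1.02 and 2 CPM in WT and 0.605, 2.91 and 0.857 CPM in mutants, from 14 to 83 reads per library. Mutant replicate 2 was the highest library and mutant replicate 1 the lowest. The log2 fold change was 0.08 ± 0.68 (SE; 95% interval -1.49 to 1.64, edgeR adjusted p = 0.957). The sum of 8 endothelial markers was highest in mutant replicate 2 as well, at 946.9 CPM against 141 to 462.6 CPM in the other libraries. Below that library the order of the sum differed from that of abcg1, and the markers within the sum differed among themselves. WT replicate 3, next highest in abcg1 at 2 CPM, had the lowest sum, 141 CPM. Mutant replicate 3, next highest in the sum at 462.6 CPM, had 0.857 CPM of abcg1. Within the sum, stab1 stood at 37.3, 24.4 and 12.9 CPM in WT and 110, 405.4 and 214 CPM in mutants. By contrast, cdh5 stood at 0.943, 7.41 and 7.94 CPM in WT and 2.55, 33.8 and 2.54 CPM in mutants. For cdh5 alone of the 8 markers, as for abcg1, WT replicate 3 was next highest after mutant replicate 2. The lowest library was WT replicate 1 for cdh5 and mutant replicate 1 for abcg1. Of those 8 markers 3 were called higher, none was at 0 in all libraries, and their part in the abcg1 level was not tested.

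nr1h3 (ENSDARG00000098439) encodes LXR, the receptor through which sterols drive the exporter genes. It measured 32.5, 25.9 and 30.5 CPM in WT and 37.4, 36.3 and 43.2 CPM in mutants. All 3 mutant libraries lay above all 3 WT libraries, which held in either direction for 37.0% of the genes tested. The mean went from 29.6 ± 3.42 to 39 ± 3.72 CPM (SD, n = 3). The log2 fold change of 0.40 ± 0.15 (SE; 95% interval 0.05 to 0.74) did not pass the threshold (edgeR adjusted p = 0.121). Its adjusted p lay between 0.0543 and 0.28 in the alternatives, lowest with library size alone, and the fold change kept its sign in all 13. Beside nr1h3 stand the rise of macrophage markers given above and that of 9 of 9 neutrophil markers (summed 591.7 to 732.4 CPM in WT and 2049 to 2503 CPM in mutants, none at 0 in all libraries). Their part in the nr1h3 level was not tested.

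lpl, taken here to be the gene that RefSeq names lpla, had nearly the same level in every WT library and a spread one in mutants. It measured 112, 105 and 109 CPM in WT, a coefficient of variation of 3.18%, and 163, 93 and 78.6 CPM in mutants, one of 40.3%. Mutant replicate 1 lay above all WT libraries and the other mutant libraries below them. The log2 fold change was 0.04 ± 0.26 (SE; 95% interval -0.57 to 0.64, edgeR adjusted p = 0.947), and without mutant replicate 1 it was -0.34 ± 0.16 (edgeR adjusted p = 0.233).

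**Figure D4:**
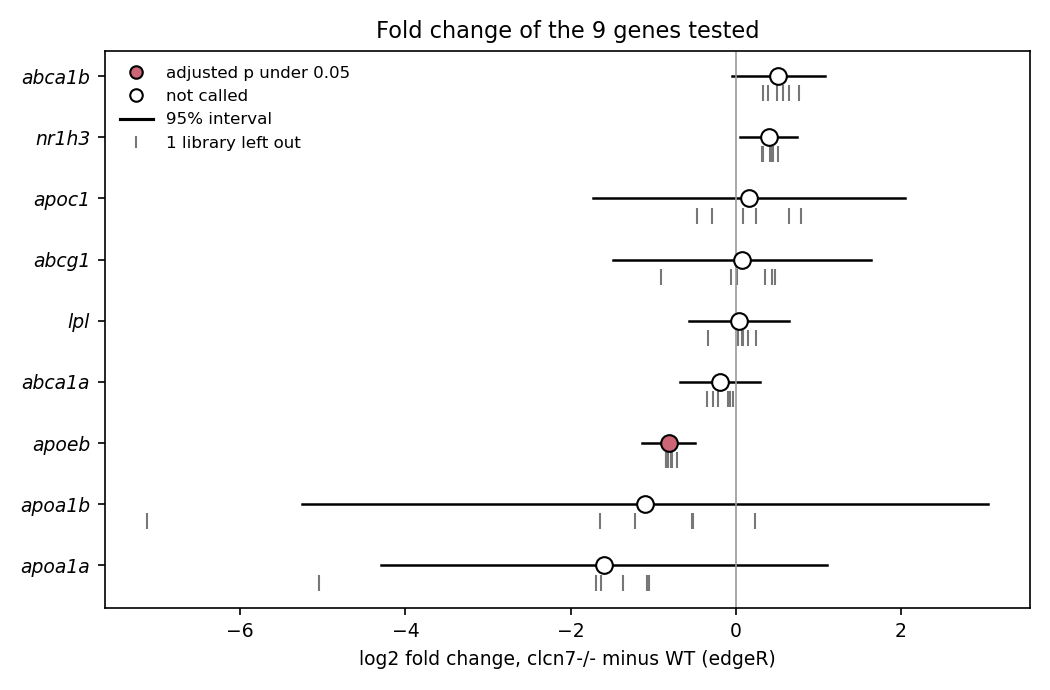
log2 fold change, clcn7-/- minus WT, of the 9 genes tested with edgeR; circles are estimates (filled where adjusted p is under 0.05), lines are 95% intervals and grey ticks are fits without 1 library. apoeb has an estimate of -0.81 and ticks close to it, whereas those of apoa1a and apoa1b reach -5.04 and -7.13.

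The genes differed in how they varied over the 6 libraries. nr1h3 and abca1b followed each other most closely among the tested pairs (Pearson's r of log2 CPM 0.94), apoa1a and apoa1b had an r of 0.84, and apoeb ran opposite to nr1h3 (r = -0.88) and abca1b (r = -0.76). These are descriptions over 6 libraries in 2 groups, with no test. Among 11224 other genes with a mean of at least 5 CPM, those most like apoeb were frs2b (r = 0.999), aldh6a1 (0.996) and dok6 (0.996). Those most like nr1h3 were fam43a (0.997), cuedc1b (0.996) and tfe3a (0.995), and those most like abca1b were ifi35 (0.994), rasgef1ba (0.992) and usf1l (0.990). The nearest gene was arrdc3b for abca1a (0.985), secisbp2 for apoa1b (0.995), dynlrb1 for apoc1 (0.992) and slco2a1 for lpl (0.983). Each of these was picked as the highest among 11224 genes over 6 libraries, so the size of r alone does not mark shared regulation.

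Around these genes, the wider lipoprotein and cholesterol pathway moved in both directions. A list of 116 further genes in 7 groups was used, of which 101 were in the files and 88 were tested. Of the 88, 13 were called higher (14.8%) and 13 lower (14.8%), against 9.91% and 4.83% of all genes tested, and their median log2 fold change was -0.29 beside -0.05. The list was chosen with earlier results of these data known, so these shares are a description and not a test of the pathway. The calls of higher genes were steadier: 9 of the 13 held in every alternative, and 2 of the 13 lower ones did. This was not particular to the pathway. Over all genes tested, leaving out WT replicate 3 took 987 lower calls to 199 and 2026 higher calls to 1157. Among the further pathway genes, 8, 7 and 2 were called lower when WT replicates 1, 2 and 3 were left out in turn. Without mutant replicate 1 that count was 6. These counts take in any gene newly called in such a fit, and so are not the survivors of the 13.

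**Figure D5:**
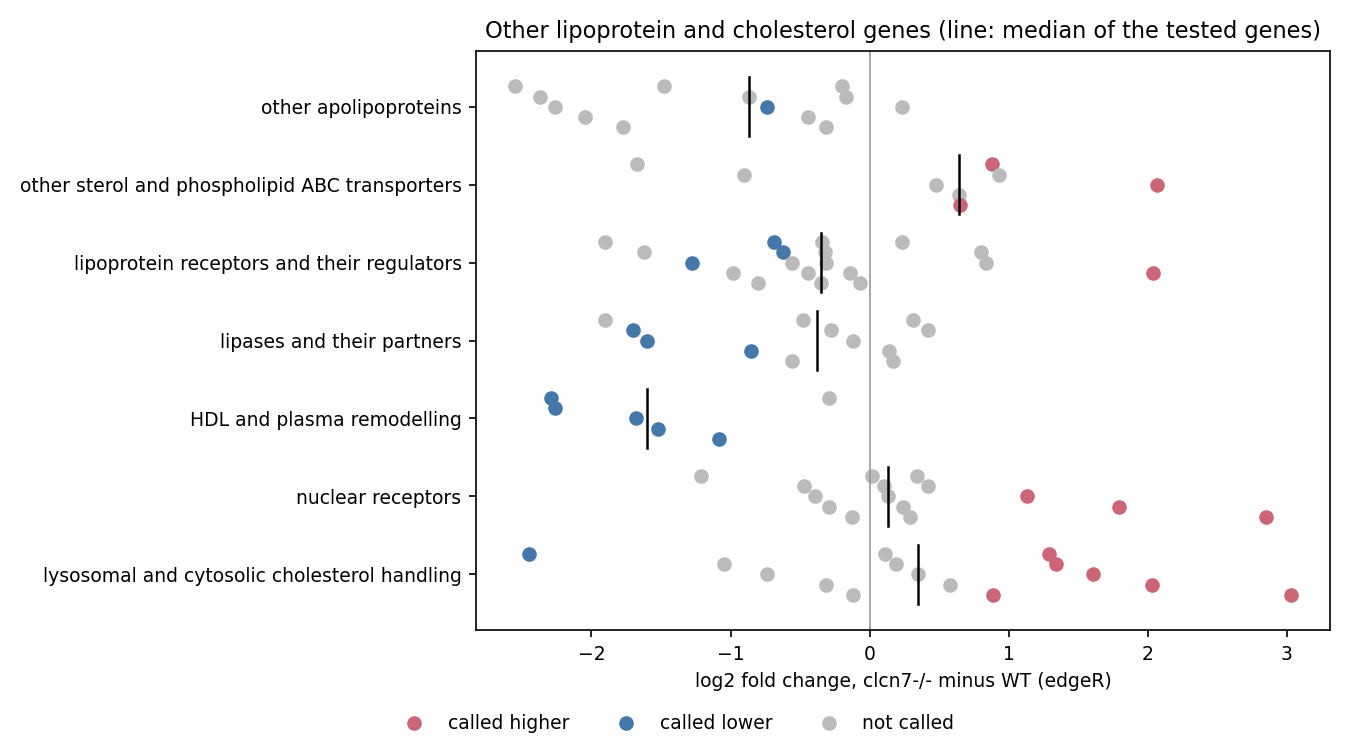
log2 fold change, clcn7-/- minus WT, of the 88 tested genes of 7 groups of the wider pathway; red points were called higher, blue points called lower and grey points not called, and the black line is each group's median. The group of HDL and plasma remodelling has a median of -1.60 and no gene called higher, and the group of lysosomal and cytosolic cholesterol handling has 6 genes called higher. Of all genes tested, 9.91% were called higher and 4.83% lower.

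Among genes that act on cholesterol inside the cell, most calls were higher, as over all genes tested (2026 higher and 987 lower). In the group of lysosomal and cytosolic cholesterol handling 6 of 15 tested genes were called higher and 1 lower. Over all genes tested these shares were 9.91% and 4.83%. plin2, which encodes a lipid droplet coat protein, went from 5.46, 4.65 and 4.16 CPM in WT to 27.6, 36.5 and 52.7 CPM in mutants (log2 fold change 3.03 ± 0.27 (SE), edgeR adjusted p = 0.000969). soat1, whose product esterifies cholesterol for storage, went from 2.63, 2.33 and 2.86 CPM to 11.1, 9.67 and 11.2 CPM (2.03 ± 0.23), and the oxysterol-binding protein gene osbpl1a rose by 1.61 ± 0.18 on the log2 scale. nceh1a, whose mammalian counterpart cleaves cholesteryl esters, went from 6.76, 4.73 and 6.51 CPM to 0.865, 1.4 and 1 CPM (-2.45 ± 0.35, edgeR adjusted p = 0.00453). These 4 calls held in all 13 alternatives, as did the higher calls of npc1 (1.29 ± 0.15) and ch25h (1.34 ± 0.21). That of npc2 (0.89 ± 0.19, edgeR adjusted p = 0.021) held in 2 of the 6 fits that leave out a library. Its adjusted p rose to 0.0701 without WT replicate 3. Of 12 macrophage markers 11 were called higher, as given above, and their part in these levels was not tested.

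Among nuclear receptors other than nr1h3, 3 of 15 tested genes were called higher and none lower. Of all genes tested, 9.91% were called higher and 4.83% lower. The RXR partner genes rxrga (1.79 ± 0.22) and rxrgb (1.13 ± 0.29) and the lipid sensor gene pparg (2.85 ± 0.29) had log2 fold changes past the threshold, with edgeR adjusted p of 0.00258, 0.0406 and 0.00165. pparg went from 6.52, 3.51 and 4.38 CPM in WT to 40.3, 25.5 and 38.5 CPM in mutants. The call of rxrgb held in 1 of the 6 fits that leave out a library (adjusted p up to 0.12, without WT replicate 3) and was lost with upper-quartile factors (adjusted p = 0.0526) and with the replicate block (adjusted p = 0.061). The remaining 4 RXR genes were not called. pparg is also on the list of 8 adipocyte markers, whose sum went from 199 to 212 CPM in WT to 535.2 to 720.4 CPM in mutants. Most of that sum was cebpa, at 158, 106 and 119 CPM in WT and 563.3, 291 and 529.7 CPM in mutants. Of the 5 adipocyte markers tested, 2 were called higher (pparg and cebpa, which myeloid cells also express) and none lower, with a median log2 fold change of 1.49, and adipoqa, adipoqb and plin1 had too few reads to test. The part of adipocytes or macrophages in these levels was not tested.

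For the group of transporters, 3 of 8 tested genes were called higher and none lower, beside 9.91% and 4.83% of all genes tested. The called genes were abcg2a (2.07 ± 0.32 on the log2 scale), abca3b (0.88 ± 0.24) and abcg2c (0.65 ± 0.18), with edgeR adjusted p of 0.00613, 0.0486 and 0.047. ABCG2 exports drugs, haem and urate, and ABCA3 loads phospholipid into lamellar bodies of the mammalian lung. The call of abcg2a held in all 13 alternatives. Those of abca3b and abcg2c held in 1 and 0 of the 6 fits that leave out a library (adjusted p up to 0.143 and 0.125, both without WT replicate 2), and upper-quartile factors ended them too (adjusted p = 0.0577 and 0.0863), as did leaving out the low-count filter for abcg2c (adjusted p = 0.0625). Beside these genes, 11 of 12 macrophage markers were called higher, and so were 7 of 8 erythroid markers, whose sum was 311.1 to 565.3 CPM in WT and 960.8 to 2564 CPM in mutants, with none at 0 in all libraries. Their part in the transporter levels was not tested.

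In the group of HDL and plasma remodelling 5 of 6 tested genes were called lower and none higher. The shares over all genes tested were 4.83% lower and 9.91% higher. pltp, which encodes the phospholipid transfer protein, went from 65.7, 64.1 and 62.4 CPM in WT to 25.2, 16.9 and 24.9 CPM in mutants (log2 fold change -1.52 ± 0.18 (SE), edgeR adjusted p = 0.00242), a call that held in all 13 alternatives. lcat, whose product esterifies the cholesterol of high-density lipoprotein, fell by 2.26 ± 0.44 and the paraoxonase gene pon1 fell by 1.68 ± 0.34, both on the log2 scale (adjusted p = 0.0141 and 0.0172, edgeR). The other called genes were pon3.2 (-1.08 ± 0.25) and cetp (-2.29 ± 0.62), with edgeR adjusted p of 0.0296 and 0.0459. cetp was scarce, with 18, 27 and 42 reads in the WT libraries and 7, 7 and 5 in the mutant libraries. Without WT replicate 3 the call of pltp alone was left of the 5, with adjusted p of 0.0674 for lcat, 0.0575 for pon1, 0.101 for pon3.2 and 0.205 for cetp. The calls of lcat, pon1, pon3.2 and cetp held in 5, 4, 2 and 0 of the 6 fits that leave out a library. That of cetp was also lost with library size alone (adjusted p = 0.0525), no low-count filter (0.0802) and the replicate block (0.0993). Keratinocyte and osteoblast markers fell with these genes, as given above. Of 8 hepatocyte markers tested, 1 was called lower and none higher, with a median log2 fold change of -1.27. Their sums overlapped between genotypes, at 11.4 to 124 CPM in WT and 7.85 to 54.1 CPM in mutants. The part of these cell types was not tested.

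Among lipases and their partners 3 of 12 tested genes were called lower and none higher, beside 4.83% and 9.91% of all genes tested. The called genes were the endothelial lipase gene lipg (-1.60 ± 0.31 on the log2 scale), angptl5 (-0.85 ± 0.17) and angptl4 (-1.70 ± 0.37), with edgeR adjusted p of 0.0153, 0.017 and 0.021. ANGPTL4 inhibits lipoprotein lipase in mammals, and angptl4 went from 444.9, 269 and 706.6 CPM in WT to 108, 134 and 193 CPM in mutants. The call of lipg was lost without WT replicate 3 (adjusted p = 0.0586), and those of angptl4 and angptl5 held in 2 of 6 fits that leave out a library, with adjusted p up to 0.0705 (without mutant replicate 1) and 0.0691 (without WT replicate 3).

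In the receptor group 1 of 19 tested genes was called higher and 3 lower, beside 9.91% and 4.83% of all genes tested. The sorting receptor genes sort1b and sort1a had log2 fold changes of 2.04 ± 0.23 and -0.69 ± 0.16 (SE, edgeR adjusted p = 0.00195 and 0.0305). The lower receptors were lrp1aa (-0.62 ± 0.15), a large endocytic receptor gene, and lsr (-1.28 ± 0.32), a lipoprotein receptor gene of epithelia, with edgeR adjusted p of 0.0313 and 0.0351. The call of sort1b held in all 13 alternatives. Those of sort1a, lsr and lrp1aa held in 2, 2 and 0 of the 6 fits that leave out a library, with adjusted p up to 0.131 (without WT replicate 2), 0.124 and 0.122 (both without WT replicate 3). Library size alone also ended those of sort1a (adjusted p = 0.0579) and lrp1aa (adjusted p = 0.0631). In the group of other apolipoproteins 1 of 13 tested genes was called, the clusterin gene clu, also known as apolipoprotein J, which went from 501.5, 601.7 and 603.3 CPM in WT to 329.2, 383.9 and 308.6 CPM in mutants (-0.74 ± 0.15, edgeR adjusted p = 0.0172). Its call held in 2 of the 6 fits, with an adjusted p up to 0.0907 without WT replicate 3. Beside this 1 of 13 stand the 14.7% of all genes tested that were called in either direction.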

How the data were processed

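The submitters' processing notes name the assembly GRCz11, the aligner STAR 2.7.0a, the counter HTSeq 0.9.1, Trim Galore and DESeq2. For the annotation, strand and settings, nothing is given in the sources used here. The authors deposited read counts, 1 file per library, and a table whose headers name log2 values, log2 fold changes and adjusted p-values. The 5 rows that name no gene (20.1% to 23.0% of counts) were left out. The labels call the libraries biological replicates and name no clutch or batch.

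Counts went through edgeR 4.0.16 in R 4.3.3, with filterByExpr (minimum count 10, minimum total 15), TMM factors and a quasi-likelihood test in which genotype was the sole term. The common biological coefficient of variation was 35.3%. SE is the log2 fold change over the root of F. On simulated data, 69 of 87 genes with a 4-fold change were called, as were 15 of 105 with a 2-fold change and 4 of 19702 with none. Far fewer genes were changed there than were called in the real data, so these rates need not hold for the real fit. Named were all members, per pathway group up to 3 called genes in each direction by smallest p, and the genes most like a member over 6 libraries (log2 CPM, prior count 2). apoa2, cetp, pon3.2, cebpa, tfa, npc1, npc2, ch25h, acp5a, tcirg1b, nfatc1, col1a2, thy1, fn1a, stab1 and cdh5 were named after their values were seen. Alternatives were RLE and upper-quartile factors, library size alone, no filter, a stricter filter, DESeq2 1.42.0, a replicate block and each library left out. The members and lists were chosen with earlier results of these data known.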

Additional observations from a re-analysis of the deposited data

How the results depend on the processing

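Of the 9 genes tested, apoeb, abca1a, abca1b and nr1h3 kept their direction and their side of the threshold in all 13 alternatives. No gene of the 10 was called higher in any alternative, and leaving out 1 library gave 1 to 2 called lower, the second being apoa1a. Directions turned for genes that were not called, and the cause was not tested. Leaving out 1 library, the log2 fold change of apoa1b ran from -7.13 to 0.23 (reversed when WT replicate 3 was left out) and that of apoc1 from -0.47 to 0.79 (-0.29 and -0.47 when WT replicate 1 or mutant replicate 3 was left out). That of abcg1 ran from -0.91 to 0.48 (-0.06 and -0.91 when WT or mutant replicate 2 was left out), and it was -0.03 with upper-quartile factors and -0.22 with the replicate block. lpl ran from -0.34 to 0.24 when 1 library was left out, and had -0.08 with upper-quartile factors, -0.04 with the replicate block and -0.34 without mutant replicate 1. Leaving out 1 library, the apoeb/apoea difference ran from -1.15 to 0.02 and that of apoa1b/apoa1a from -2.31 to 0.76, the latter reaching 0.76 without WT replicate 3 and 0.72 without mutant replicate 1.

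Over all genes, 3013 calls became 4555 with DESeq2, of which 1845 were lower. Upper-quartile factors gave 1675 lower genes and library size alone 564. Leaving out 1 library gave 1356 to 2527 calls, 1157 to 1828 of them higher and 199 to 737 lower, and 2 to 10 lower among the further pathway genes. The median log2 fold change of all genes was -0.16 with upper-quartile factors, 0.10 with library size alone and -0.05 with TMM. The labels do not say whether replicate numbers pair the samples, and the deposited data do not settle it. Same-numbered libraries correlated at 0.24, 0.033 and 0.16 in their deviations from the group means. Libraries of unlike number correlated at -0.21 to 0.035, and each library correlated best with its own number except WT replicate 2. The replicate block gave 3007 calls and changed no call among the 9 genes. With it the log2 fold changes of apoa1a and apoa1b became -3.16 and -2.94. Among the further pathway genes the block ended the calls of rxrgb (edgeR adjusted p = 0.061) and cetp (edgeR adjusted p = 0.0993). At 2 to 10 reads per library, apoea cannot show a difference.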
